A study of Mus musculus with 34 samples.

Results

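The killer-cell lectin-like receptor genes were taken as every gene whose symbol begins with Klr followed by a letter between a and k. There were 36 such genes among the 24505 symbols of the gene table for the Lck-Cre libraries, and 10 of the 36 were also among the 2076 genes of the table for the Vav1-iCre libraries. By subfamily, 20 were Klra genes or pseudogenes (the Ly49 receptors), 6 were Klrb genes (the Nkrp1 receptors), 3 were Klrc genes (the NKG2 receptors), and the others were Klrd1 (CD94), Klre1, Klrg1, Klrg2, Klri1, Klri2 and Klrk1 (NKG2D). All 36 lay on mouse chromosome 6, 34 of them within the natural killer gene complex, with Klrg2 and Klrg1 outside it.

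These genes encode C-type lectin-like receptors of natural killer (NK) cells, of innate-like lymphocytes and of some mature T cells, where they bind class I major histocompatibility complex molecules, class I-like stress ligands or Clec2 proteins on other cells. The Ly49 receptors and the CD94 and NKG2 heterodimers include both inhibitory and activating forms. Depending on the receptor, activating members of the whole family signal through the adaptor proteins DAP12 (gene Tyrobp), DAP10 (gene Hcst) or the Fc receptor gamma chain (gene Fcer1g). Developing T cells in the thymus normally keep most of these genes silent, and Bcl11b is a zinc-finger transcription factor of T-lineage commitment whose loss in early T cells is known to allow NK-like features.

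The study measured RNA from CD25+ double-negative (DN) thymocytes of mice on a C57BL6/J background, with a floxed Bcl11b allele removed by 1 of 2 Cre transgenes and Cre activity read by a yellow fluorescent protein (YFP). With Lck-Cre, active from early T-cell stages in the thymus, the groups were Bcl11b flx/flx cells sorted as YFP+CD25+ (HOM, 5 libraries), Bcl11b flx/+ cells sorted as YFP+ at DN3 (HET DN3, 6) or YFP- at DN2 (HET DN2, 5), and Bcl11b +/+ cells at DN3 (WT DN3, 5) or DN2 (WT DN2, 4). With Vav1-iCre, active throughout blood cell development, all cells were YFP+CD25+ and the groups were flx/flx (HOM, 3), flx/+ (HET, 4) and +/+ (WT, 2). All groups, the wild types included, carried a Cre transgene, and the DN2 groups were YFP-, so the stage and the Cre reporter differ together. Whether the replicates are different animals is not stated in the labels, and each p-value therefore reflects the scatter among these libraries, which may be partly technical.

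The Lck-Cre libraries held between 15772841 and 43105091 counts. Bcl11b itself stood at 49.6 ± 10.3 RPKM (counts scaled by transcript length and library total) in HOM libraries, against 106 ± 13.5 RPKM in WT DN3 libraries (SD, n = 5 each); the sources used here do not say which exons the floxed allele loses, so the level that remains is not a measure of protein. Id2, a repressor of E proteins, stood at 54.1 ± 6.39 RPKM in HOM against 3.90 ± 0.513 RPKM in WT DN3, and Zbtb16, which encodes the innate-lymphocyte factor PLZF, at 17.7 ± 2.99 against 0.0338 ± 0.0402 RPKM. Several libraries stood apart. HET DN3 replicate 1 and WT DN2 replicate 2 are called the libraries with mature T-cell RNA below. They had 248 and 214 CPM (counts scaled to the library total) of Cd4, the co-receptor that double-negative cells lack. Over all 14 mature T-cell genes listed they held 1587 and 2940 CPM, against medians of 1780 in HET DN3 and 2468 in WT DN2. HET DN3 replicate 1 thus stood apart by Cd4 and not by the sum of that list. It also held 868 CPM of 6 erythroid genes, against a HET DN3 median of 7.22 CPM. HOM replicates 2 and 3, HET DN3 replicates 2 and 3 and HET DN2 replicates 1 and 2 carried epithelial RNA, with between 132 and 1280 CPM of Clu, a gene of epithelial cells, against at most 1.29 CPM in the other 19. Results that rest on these 8 libraries are given with and without them.

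No member reached a group mean of 1 RPKM in any Lck-Cre group, whether all libraries were used or the 2 with mature T-cell RNA, the 6 with epithelial RNA or all 8 were left out. Of all genes with settled values, 50.1% reached that level. The members nearest to it were Klrb1f at 0.776 RPKM in HET DN2, Klrb1c at 0.735 RPKM in WT DN2, Klrd1 at 0.733 RPKM in WT DN2, Klrg2 at 0.659 RPKM in HET DN2 and Klrk1 at 0.611 RPKM in WT DN2. Without the 2 libraries with mature T-cell RNA the WT DN2 means were 0.449 RPKM for Klrb1c, 0.0912 RPKM for Klrd1 and 0.0240 RPKM for Klrk1. Without the 6 epithelial libraries no group mean of Klrg2 passed 0.153 RPKM. In single libraries 8 members passed 1 RPKM, namely Klrb1c, Klrb1f, Klrc1, Klrc2, Klrd1, Klrk1, Klrg1 and Klrg2. At the other end 10 members had no count in any library where they were read, which allows at most between 0.00398 and 0.00624 RPKM for each over all 25 libraries (3 counts, counting error only). A further 12 had 1 to 10 counts over all libraries and 14 had more than 10.

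**Figure D1:**
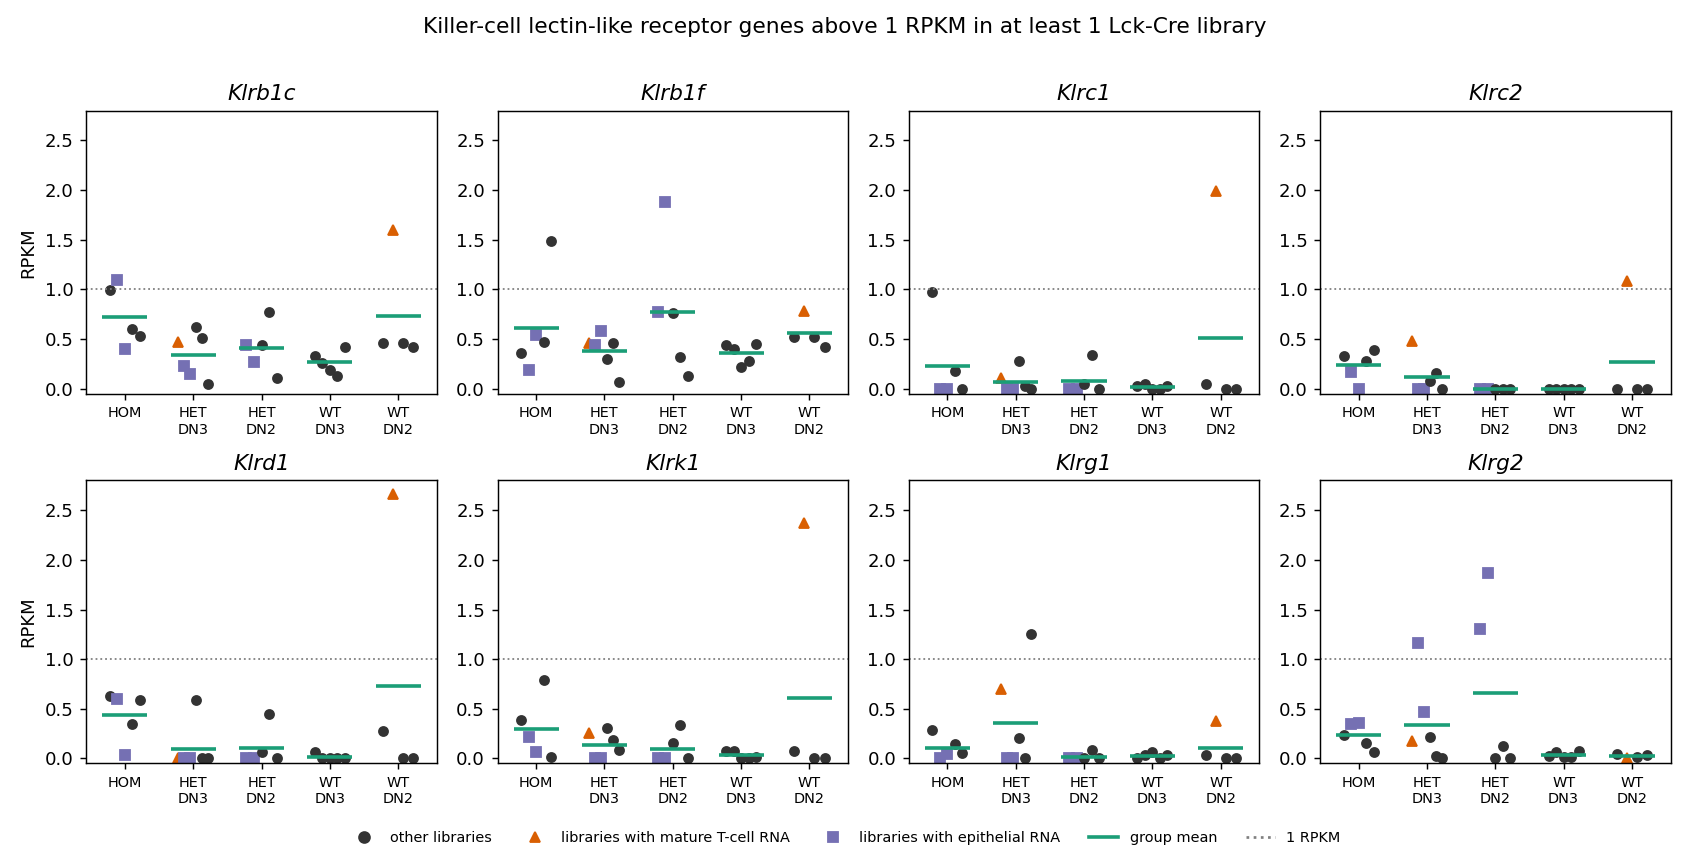
RPKM (vertical axis) of the 8 members that passed 1 RPKM in some Lck-Cre library, with 1 point per library, in HOM, HET DN3, HET DN2, WT DN3 and WT DN2 groups; bars are group means and the dotted line is 1 RPKM. Every group mean lies below the line, and WT DN2 replicate 2, with 2.66 RPKM of Klrd1 and 2.37 RPKM of Klrk1, is the highest triangle.

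The question put to the HOM libraries is which genes Bcl11b normally holds down or keeps up after T-lineage commitment. Summed over the 34 members read in all 25 libraries, the receptors took 8.55, 6.21, 3.44, 7.36 and 5.21 CPM in HOM replicates 1 to 5, against 2.26, 2.24, 1.04, 0.941 and 2.37 CPM in WT DN3 replicates 1 to 5. Every HOM library lay above every WT DN3 library. The HET DN3 libraries lay between 2.24 and 5.93 CPM and the HET DN2 libraries between 0.499 and 8.65 CPM, so both overlapped HOM. The 8.65 CPM was in an epithelial library, where the Klrg genes gave 4.25 CPM. Without the 6 epithelial libraries HOM lay between 5.21 and 8.55 CPM. HET DN2 then lay between 0.499 and 5.68 CPM and HET DN3 between 2.24 and 5.93 CPM, so both still overlapped HOM. The WT DN2 libraries held 3.24, 22.6, 2.24 and 2.35 CPM, the second of them being the one with mature T-cell RNA, and without it their mean was 2.61 ± 0.548 CPM (SD, n = 3). In these bulk libraries more cells of a type and more RNA per cell cannot be told apart.

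Klrb1c and Klrb1f gave 37.8, 51.3, 56.9, 32.4 and 75.4% of the member counts in HOM replicates 1 to 5, against 71.8, 60.9, 83.3, 85.7 and 79.4% in WT DN3 replicates 1 to 5. The groups overlapped through HOM replicate 5. Over the pooled counts the shares were 48.8% in HOM (375 of 769 counts; 95% Wilson interval 45.2 to 52.3%) and 76.1% in WT DN3 (191 of 251 counts; 70.5 to 81.0%), and the intervals cover counting error only, not the spread between libraries.

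**Figure D2:**
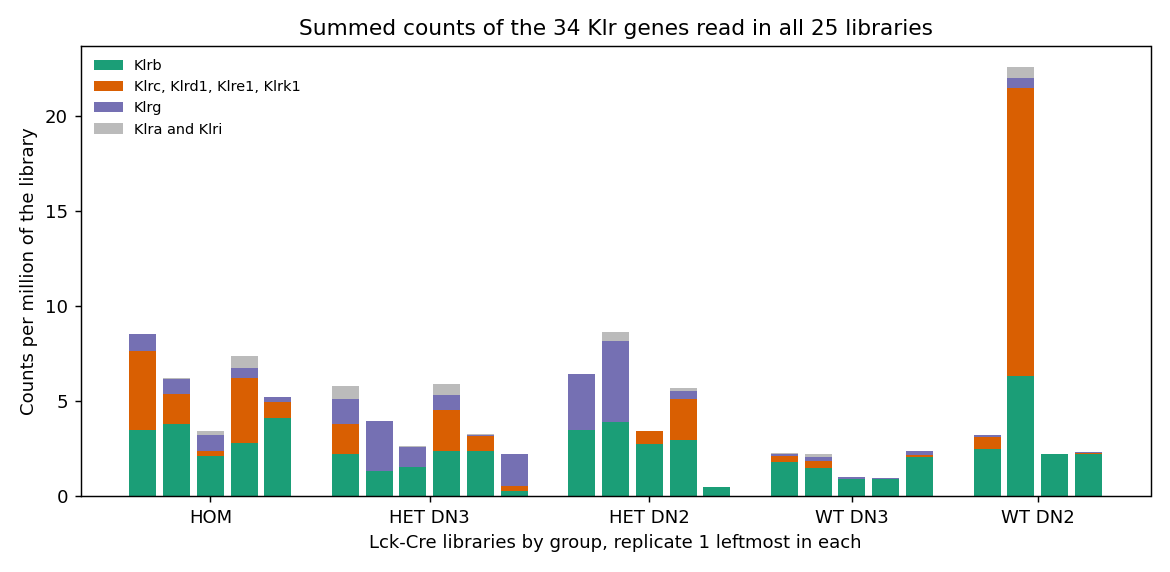
Summed counts of the 34 Klr genes read in all libraries, in CPM (vertical axis), with 1 bar per Lck-Cre library in HOM, HET DN3, HET DN2, WT DN3 and WT DN2 groups and colours for subfamilies. WT DN2 replicate 2 reaches 22.6 CPM, while the WT DN3 bars end at 2.37 CPM or below and consist mostly of Klrb genes.

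The filter of 1 RPKM left no member to test, so members were tested in a fit of all 19145 genes with at least 1 count, where 24 of the 34 settled members had one. In edgeR's quasi-likelihood test with Benjamini-Hochberg adjustment over all 19145 genes, none of the 24 passed an adjusted p of 0.05 for HOM against WT DN3, where 24.7% of all genes tested did. At an unadjusted p under 0.05 there were 5, all higher in HOM (Klra5, Klrb1c, Klrc2, Klrc3 and Klrd1). DESeq2 called 1, Klrb1c, and limma called 0.

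Among the Nkrp1 receptors, Klrb1c encodes the NK1.1 antigen, an activating receptor that marks NK cells in C57BL/6 mice. It had 0.998, 1.09, 0.397, 0.607 and 0.533 RPKM in HOM replicates 1 to 5, against 0.331, 0.260, 0.187, 0.128 and 0.424 RPKM in WT DN3 replicates 1 to 5. The groups overlapped through HOM replicate 3 alone, which lies just under WT DN3 replicate 5. The log2 difference was 1.35 ± 0.602 (SE), with an adjusted p of 0.103 by edgeR's quasi-likelihood test, and over the alternative settings the adjusted p ran between 0.0292 and 0.204. Without the 6 epithelial libraries the 3 remaining HOM libraries lay above all 5 WT DN3 libraries, and the ratio of summed counts, each scaled to the summed library totals, was 2.65 (95% counting interval 2.04 to 3.45).

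Klrb1f, an Nkrp1 receptor whose ligand is of the Clec2 group, had counts in every library. Its level lay between 0.187 and 1.49 RPKM in HOM, with a median of 0.468 RPKM, and between 0.220 and 0.450 RPKM in WT DN3, with a median of 0.401 RPKM. The highest HOM value was that of replicate 5 and the groups overlapped (log2 difference 0.69 ± 0.603, SE; edgeR adjusted p = 0.404). Klrb1a, an activating Nkrp1 receptor, had 27 counts in HOM and 12 in WT DN3, and Klrb1b, an inhibitory one, had 13 and 7. Klrb1 and the pseudogene Klrb1-ps1 could be read in 15 of the 25 libraries only, all HOM, HET DN2 and WT DN3, with at most 3 counts in any of them.

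CD94 (Klrd1) pairs with NKG2A (Klrc1) as an inhibitory receptor or with NKG2C (Klrc2) as an activating one, both for the class I-like molecule Qa-1. Klrd1 had 14, 13, 1, 6 and 13 counts in HOM replicates 1 to 5, against 1, 0, 0, 0 and 0 counts in WT DN3 replicates 1 to 5. As levels these were 0.628, 0.603, 0.0368, 0.348 and 0.589 RPKM in HOM and at most 0.0674 RPKM in WT DN3. Again HOM replicate 3 alone reached into the WT DN3 range. With 47 counts against 1, the ratio of summed counts was 53.1 once scaled to the library totals, with a 95% counting interval between 9.08 and 2140. The fitted log2 difference of 4.77 ± 1.86 (SE) had an edgeR adjusted p of 0.0629, and between 0.00688 and 0.177 over the alternative settings.

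Klrc2 showed counts in 4 of the 5 HOM libraries and in none of the 5 WT DN3 libraries. It had 6, 3, 0, 4 and 7 counts in HOM replicates 1 to 5. Set against the 3-count floor of the summed WT DN3 libraries, this was at least 7.53-fold higher in HOM. Its edgeR adjusted p was 0.0581, and between 0.0124 and 0.184 over the alternative settings.

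Klrc1 rested on fewer libraries, with 50 counts in HOM replicate 1 and 7 in HOM replicate 4 and none in the other 3, against 1, 2, 0, 0 and 2 counts in WT DN3 replicates 1 to 5. The groups overlapped, and the log2 difference of 3.35 ± 1.93 (SE) had an edgeR adjusted p of 0.205. Klrc3 (NKG2E) had 8 counts over 3 HOM libraries and none in WT DN3, and Klre1 had 3 counts in HOM replicate 2 and none in WT DN3. Reads of the Klrc genes are hard to tell apart. In the GENCODE M21 transcripts 38.6% of the 50-base words of Klrc1, 16.3% of those of Klrc2 and 36.3% of those of Klrc3 also occur in another Klr gene, and the reads were 50 bases long. Klrd1 and Klrk1 shared no such word with any other Klr gene. The following 50 bases of a coding exon, identical in all 3 Klrc genes and shown because a read from them cannot be assigned, lie in Klrc2 on the minus strand at chr6:129656421-129656470 of GRCm38.

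Klrc1, Klrc2 and Klrc3: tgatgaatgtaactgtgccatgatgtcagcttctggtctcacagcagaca

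NKG2D (Klrk1) is an activating receptor for the Rae1 and H60 stress ligands and signals through DAP10 and DAP12. It had 33, 18, 7, 52 and 1 counts in HOM replicates 1 to 5, against 4, 5, 0, 0 and 2 counts in WT DN3 replicates 1 to 5. The groups overlapped, since the 0.0119 RPKM of HOM replicate 5 and the 0.0677 RPKM of HOM replicate 3 lay below the 0.0747 RPKM of WT DN3 replicate 2, while HOM replicate 4 reached 0.793 RPKM. The log2 difference was 3.18 ± 1.74 (SE) with an edgeR adjusted p of 0.181.

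Leaving out libraries changed these calls. Without the 2 libraries with mature T-cell RNA, Klrc2 passed (edgeR adjusted p = 0.0255). Without the 6 epithelial libraries, HOM replicates 2 and 3 among them, Klrc2 (0.0418) and Klrd1 (0.0446) passed, and without all 8, Klrc1, Klrc2, Klrd1 and Klrk1 passed, with adjusted p-values of 0.0407, 0.0124, 0.0220 and 0.0363 by the same test. In that last fit their log2 differences were 4.16, 5.54, 5.10 and 3.73, on 3 HOM libraries against 5 WT DN3 libraries. All of these alternatives were added after the data had been seen. Leaving out HOM replicate 3 alone made 1 call in edgeR (Klrc2, adjusted p = 0.0487).

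Markers of other cells moved with these receptors. Outside HOM, the libraries with the highest summed level of Klrc1, Klrc2, Klrd1 and Klrk1 were also those with the most Cd4. The receptor sum was 1.40 CPM in HET DN3 replicate 1 with 248 CPM of Cd4, 2.13 CPM in HET DN3 replicate 4 with 36.5 CPM, 2.15 CPM in HET DN2 replicate 4 with 42.8 CPM and 14.7 CPM in WT DN2 replicate 2 with 214 CPM. In WT DN3 it was at most 0.347 CPM, with between 2.46 and 13.5 CPM of Cd4. The HOM libraries held 3.96, 1.35, 0.252, 3.43 and 0.816 CPM of these 4 receptors with 5.12, 2.71, 3.44, 20.6 and 0.505 CPM of Cd4 in replicates 1 to 5. HOM replicates 1, 2 and 5 thus had more of the receptors than any WT DN3 library, at Cd4 levels below the 13.5 CPM of WT DN3 replicate 1. Ccl5, a chemokine of effector lymphocytes, was at 12.2, 0.159, 0.473, 8.41 and 0.466 CPM in HOM replicates 1 to 5 and at most 2.26 CPM in WT DN3, so replicates 1 and 4 were highest for it as for the receptors. The part of mature T cells in the HOM values was not tested.

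**Figure D3:**
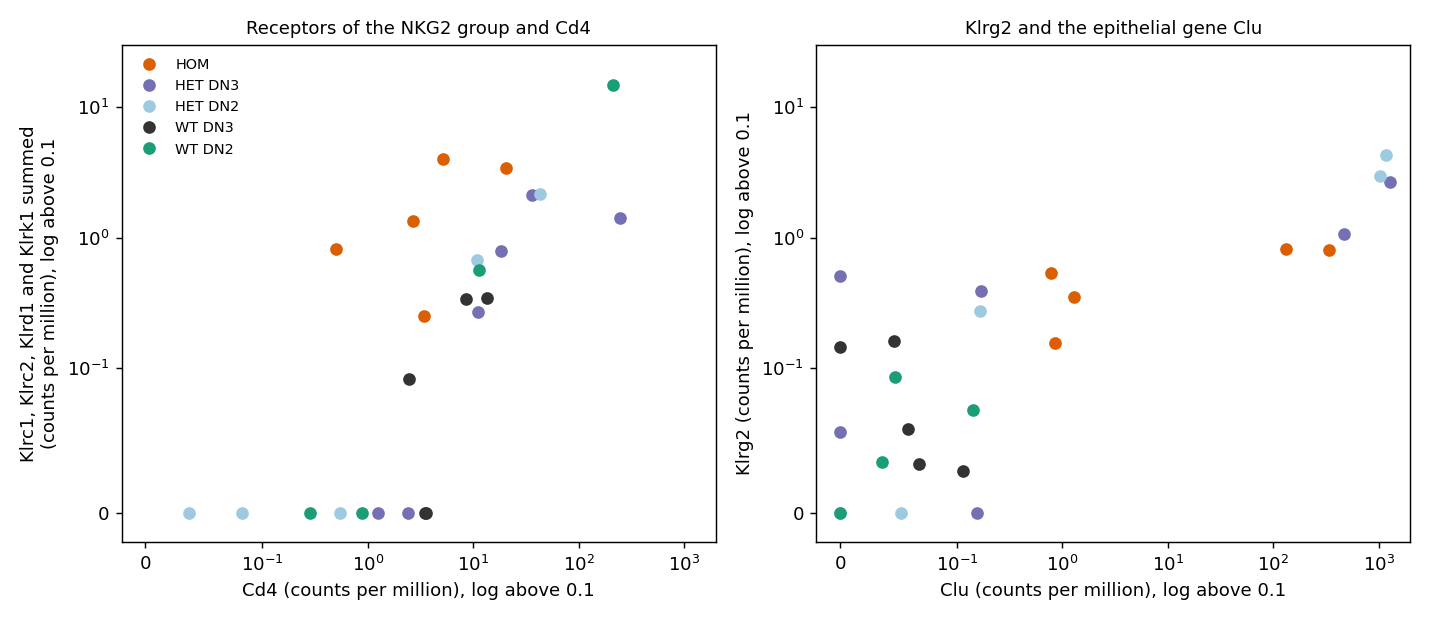
Left, the summed CPM of Klrc1, Klrc2, Klrd1 and Klrk1 against those of Cd4, and right, those of Klrg2 against those of the epithelial gene Clu, with 1 point per Lck-Cre library coloured by group; axes are linear below 0.1 and logarithmic above. HOM replicate 1 has 3.96 CPM of the 4 receptors at 5.12 CPM of Cd4, and the 6 libraries with at least 132 CPM of Clu hold the 6 highest Klrg2 values.

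Of the 16 NK and type 1 innate lymphoid cell genes, listed with results of these data known, 9 could be tested and 5 rose in HOM against WT DN3 while 1 fell, where the 1 RPKM filter was used and 39.4% of all 12218 genes tested were called, 19.8% higher and 19.7% lower. Their median log2 difference was 2.59, against 0.01 over all genes tested. Cd160, an NK and T-cell receptor for the herpesvirus entry mediator, was at 25.96, 24.8, 20.2, 15.2 and 22.8 RPKM in HOM replicates 1 to 5 and between 0.933 and 1.80 RPKM in WT DN3 (log2 4.07, edgeR adjusted p = 1.69e-11). Cd244, which encodes the NK receptor 2B4, rose by 4.46 (adjusted p = 1.69e-06, edgeR), Gzma, a granzyme, by 1.36 (0.000116), and Il2rb, the interleukin-2 receptor beta chain, by 4.60 (0.0154). The member that fell was Nkg7, a granule membrane protein (log2 -1.23, edgeR adjusted p = 0.0167). Ncr1, which encodes the NK receptor NKp46, had 2, 0, 0, 15 and 13 counts in HOM replicates 1 to 5 and none in any WT DN3, WT DN2 or HET DN2 library. The list's summed level ran between 436 and 812 CPM in HOM and between 185 and 228 CPM in WT DN3.

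In HOM, Fcer1g and Tyrobp, which encode adaptors of some activating receptors of the family, stood above every receptor in each library. In WT DN3 replicates 1 to 4 both were below 1 RPKM, as the receptors were. Fcer1g was at 67.4, 63.8, 65.2, 41.0 and 76.3 RPKM in HOM replicates 1 to 5, against 0.267, 0.374, 0.531, 0.413 and 1.497 RPKM in WT DN3 replicates 1 to 5 (log2 6.55 ± 0.71, SE; edgeR adjusted p = 2.39e-07). Tyrobp was at 16.5, 17.3, 24.7, 7.83 and 20.4 RPKM in HOM, against 0.518, 0.523, 0.361, 0.481 and 4.19 RPKM in WT DN3 (log2 3.76 ± 0.618, SE; edgeR adjusted p = 4.90e-05). No HOM library overlapped a WT DN3 library for either gene. Hcst, named here as the DAP10 gene whatever its rank, did not pass (log2 0.46 ± 0.37, SE; edgeR adjusted p = 0.340), with RPKM between 8.58 and 18.6 in HOM and between 7.82 and 11.6 in WT DN3. Of the 13 partner and signalling genes tested, 6 rose and 2 fell, with a median of 0.40 against 0.01 over all genes; beside these adaptors Plcg2, a phospholipase downstream of them, rose by 1.58 (adjusted p = 7.84e-07, edgeR), and the adaptor Lat fell by 0.81 (0.000345).

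Of 9 ligand genes tested in that comparison 3 rose and none fell, namely H2-D1 (log2 0.78, edgeR adjusted p = 0.00877) and H2-T23 (0.62, 0.0262), which encode the class I molecules bound by Ly49 receptors and by CD94 and NKG2 dimers, and Cdh2 (7.09, 0.0259), N-cadherin, a ligand of Klrg1. Cdh2 had 0, 0.990, 0.373, 0.247 and 0.0483 RPKM in HOM replicates 1 to 5 and at most 0.00481 RPKM in WT DN3, so its highest HOM values lay in the 2 epithelial libraries. Of 9 tested neighbours of the receptors in the NK gene complex none rose and 2 fell, Ybx3 (log2 -1.02, edgeR adjusted p = 9.13e-07) and Gabarapl1 (-1.16, 0.000255). Of all genes tested 39.4% were called, 19.8% higher and 19.7% lower. The 3 of 9 ligand genes called were near the share called in either direction. The 2 of 9 neighbours called lower were near the share called lower.

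Markers of other lineages were tested in the same comparison, where 39.4% of all genes were called. For mature T cells 4 rose and 2 fell of 14 tested, for gamma-delta T cells 1 rose and 2 fell of 6, for epithelium 3 rose and 1 fell of 5, for erythroid cells 1 rose of 5, for myeloid and dendritic cells 1 fell of 4, and for B cells 1 fell of 2. The mature T-cell share called is near that background. The mature T-cell list summed to between 1636 and 2740 CPM in HOM and between 1199 and 1730 CPM in WT DN3. The epithelial list summed to between 14.3 and 816 CPM in HOM and between 43.3 and 49.8 CPM in WT DN3, and the gamma-delta T-cell list to between 1107 and 1796 CPM in HOM and between 179 and 251 CPM in WT DN3. The B-cell list, at most 16.8 CPM in HOM, and the myeloid and dendritic list, at most 13.6 CPM, were no higher there than the 28.5 and 24.1 CPM reached in WT DN3. Il23r and Siglech were at 0 in every HOM library. The part of these cells in the receptor values was not tested.

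Against HET DN3, the flx/+ cells sorted as YFP+, none of the 24 members was called in HOM by edgeR, DESeq2 or limma. There edgeR called 14.7% of all genes. Only Klrc3 had an unadjusted p under 0.05. Klrd1 had 47 counts in HOM and 9 in HET DN3, all 9 in replicate 4. Without that library, 1 of the alternatives, the log2 difference was 6.22 and the edgeR adjusted p 0.0363. Klrb1c had 0.725 ± 0.303 RPKM in HOM (SD, n = 5) and 0.336 ± 0.228 RPKM in HET DN3 (SD, n = 6), with an edgeR adjusted p of 0.206.

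The HET libraries spread widely. Klrb1c had 0.468, 0.226, 0.148, 0.619, 0.511 and 0.0442 RPKM in HET DN3 replicates 1 to 6, and 0.440, 0.272, 0.438, 0.778 and 0.104 RPKM in HET DN2 replicates 1 to 5. Klrk1 had 15, 0, 0, 18, 11 and 7 counts in the HET DN3 libraries, while HET DN2 replicates 1 to 5 had 0, 0, 10, 20 and 0, and the 4 epithelial libraries among them had none. Klrb1f in HET DN2 had 0.777, 1.88, 0.767, 0.325 and 0.133 RPKM, the highest in an epithelial library.

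The comparison of HET DN3 with WT DN3 asks whether 1 allele is enough. None of the 24 members was called by edgeR, DESeq2 or limma, where edgeR called 2.13% of all genes, and 3 had an unadjusted p under 0.05, all higher in HET DN3. These were Klrc2, with 6, 0, 0, 1, 2 and 0 counts in HET DN3 replicates 1 to 6 and none in WT DN3, Klrg1 and Klrg2. At DN2, HET against WT, edgeR called no member and 0% of all genes. At an unadjusted p under 0.05 there were 2 higher in HET DN2 (Klra2 and Klrg2) and 3 lower (Klra1, Klrc2 and Klrc3). DESeq2 called Klrg2 (adjusted p = 0.0374) and limma called 0. The 3 lower ones had counts in WT DN2 replicate 2, where Klrc2 had all 12 of the WT DN2 counts, Klra1 all 9 and Klrc3 7 of 8. The HET DN2 cells were YFP-, so loss of an allele in them is not shown. Bcl11b stood at 145 RPKM in HET DN2 and 148 RPKM in WT DN2, and at 104 RPKM in HET DN3 and 106 RPKM in WT DN3. Its RNA level therefore did not show loss of an allele in HET DN3 either. The change from WT to HET was compared between DN3 and DN2. By edgeR it differed for no member and for 0% of all genes, with 5 members at an unadjusted p under 0.05. DESeq2 and limma also called none.

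Between the stages, 6 members were lower in WT DN3 than in WT DN2 at an unadjusted p under 0.05 (Klrb1c, Klrc1, Klrc2, Klrc3, Klrd1 and Klrk1), but none passed the adjustment by edgeR, DESeq2 or limma, where edgeR called 10.8% of all genes. Fitted on these 2 groups alone with the replicate number as a block, Klrb1c was lower in WT DN3 (log2 -1.45, edgeR adjusted p = 0.00968). Whether equal numbers mark paired libraries is not stated in the labels. On the same groups without the block the adjusted p was 0.0595, and with the block in the fit of all 5 groups it was 0.218. It had 0.331, 0.260, 0.187, 0.128 and 0.424 RPKM in WT DN3, against 0.465, 1.59, 0.461 and 0.420 RPKM in WT DN2, and the groups overlapped through WT DN3 replicate 5. Without WT DN2 replicate 2, which held 66 of the 157 WT DN2 counts, the ratio of summed counts was 0.610 in place of 0.425, and the log2 difference was -1.07 with the block on these groups (edgeR adjusted p = 0.00711) and -0.66 in the fit of all groups (0.683). For the other 5, WT DN2 replicate 2 held most of the counts. That library had 122 counts of Klrk1, 62 of Klrc1, 36 of Klrd1 and 12 of Klrc2, while the other 3 WT DN2 libraries had at most 5, 2, 5 and 0 counts of these genes. Without it and HET DN3 replicate 1, the WT DN2 mean of Klrk1 was 0.0240 RPKM against 0.0320 RPKM in WT DN3. Between HET DN3 and HET DN2 no member was called by edgeR, DESeq2 or limma, where edgeR called 5.09% of all genes, and Klrc2 and Klrg1 had an unadjusted p under 0.05. Against WT DN2, HOM had no member called by edgeR, which called 24.8% of all genes, nor by limma; Klrg2 had an unadjusted p under 0.05 and was called by DESeq2 (adjusted p = 0.0431).

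Klrg1 is an inhibitory receptor for cadherins on effector T and NK cells, and Klrg2 is a relative encoded far from it. Klrg1 had 17, 0, 0, 5, 0 and 44 counts in HET DN3 replicates 1 to 6, and at most 10 counts in any HOM library and 3 in any WT DN3 library. The 44 counts of HET DN3 replicate 6 were 1.26 RPKM, while that library had 7 counts of Klrk1 and none of Klrc1, Klrc2 or Klrd1. Klrg2 followed another set of libraries. The 6 epithelial libraries had between 0.350 and 1.87 RPKM (20 to 113 counts), and the other 19 had between 0 and 0.237 RPKM (0 to 14 counts), so the sets did not overlap. Without those 6, the mean of Klrg2 fell to 0.0404 RPKM in HET DN2 (n = 3) and 0.104 RPKM in HET DN3 (n = 4), against 0.659 and 0.341 RPKM with them. The part of epithelial cells in the Klrg2 values was not tested.

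The Ly49 (Klra) genes were barely detected. Of 20, 9 had no count in any Lck-Cre library and the most in any library was 0.345 RPKM. That value was Klra1 in WT DN2 replicate 2 (9 counts), followed by Klra5 in HOM replicate 4, where all 7 of its HOM counts lay (0.305 RPKM). Between 0 and 39.8% of the 50-base words of 13 Klra genes found in GENCODE M21 also occur in another Klr gene (median 12.3%), so reads of this subfamily are uncertain between members. The rest of the 20 were not found there, and some entries share their span with another. The 20 may therefore not all be separate genes in these mice. Of the 2 Klri genes, which encode receptors that pair with Klre1, Klri1 had no count and Klri2 had at most 3 in a library.

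With Vav1-iCre the receptors were read from the authors' deposited list of genes, in which the well-counted genes leave a gap around equal levels in HOM and the controls and whose header records an edgeR comparison of HOM with the WT and HET libraries pooled. A count of 10 of 36 members on it, and all 10 on its higher side, is therefore a description of that choice, and no test of HOM is given. On the whole list 972 of 2076 genes, 46.8%, were on the higher side. Values are CPM of the listed genes, scaled between libraries.

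Klrk1 was at 143.8, 123.4 and 71.1 scaled CPM in HOM replicates 1 to 3, against 1.44, 1.07, 0 and 0 in HET replicates 1 to 4 and 0 and 1.69 in WT replicates 1 and 2. The ratio of pooled HOM to control counts was 179 (95% counting interval 86.5 to 448). Klrd1 was at 28.4, 16.3 and 42.1 scaled CPM in HOM, against 0.718, 0.534, 0 and 0 in HET and 0.343 and 3.93 in WT, a 31.8-fold ratio (16.8 to 67.7). For both genes all 3 HOM libraries lay above all 6 controls.

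The other CD94 partners and relatives were at or near 0 in the controls. Klrc1 was at 32.2, 12.96 and 1.86 scaled CPM in HOM, with a single count in the 6 controls. Klrc2 (14.8, 12.4 and 1.24), Klrc3 (11.6, 25.9 and 1.24), Klre1 (23.2, 16.3 and 2.48) and Klri2 (3.87, 1.13 and 1.24) had no count in any control. Set against 3 counts over the 6 controls, they were at least 35.3-fold, 49.6-fold, 51.9-fold and 7.52-fold higher in HOM. Klra5 (Ly49e) was at 18.1, 42.3 and 0 scaled CPM in HOM with no control count, and Klra7 (Ly49g) at 15.5, 18.6 and 0 with 1 control count, so both overlapped the controls through HOM replicate 3. Klrb1a was the member with the highest control level, at 15.5, 11.3 and 12.99 scaled CPM in HOM, between 0 and 2.72 in HET, and 5.14 and 1.69 in WT (5.43-fold, 3.42 to 8.85).

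**Figure D4:**
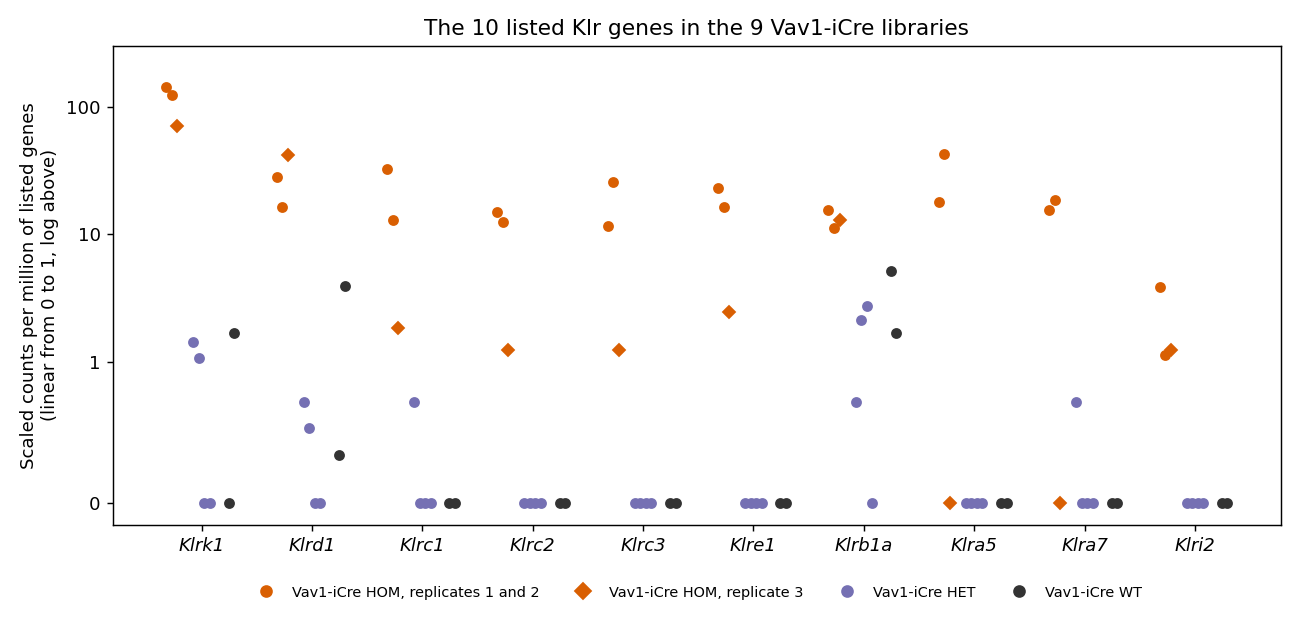
Scaled CPM of the listed genes (vertical axis, linear below 1 and logarithmic above) for the 10 members on the Vav1-iCre list, with 1 point per library in HOM, HET and WT groups; diamonds are HOM replicate 3. Klrk1 stands between 71.1 and 143.8 in HOM, and the diamonds lie low for Klrc, Klre1 and Klra genes but highest for Klrd1.

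HOM replicate 3 had another makeup than the other HOM libraries. Klrd1 gave 31.3% of its 217 member counts (95% Wilson interval 25.5 to 37.8%), against 9.24% of 476 in replicate 1 (6.96 to 12.2%) and 5.82% of 498 in replicate 2 (4.08 to 8.24%). Klrk1 gave 53.0%, 46.8% and 44.0% in replicates 3, 1 and 2. Some markers of other cells were lowest in replicate 3 and others were not. Ncr1 was at 61.9, 87.9 and 12.99 scaled CPM in HOM replicates 1 to 3, Cd8a, a co-receptor of mature T cells and of later thymocytes, at 436, 321 and 75.5, and Ccl5 at 25.1, 46.2 and 8.04. Fcer1g, at 1184, 1294 and 1043, varied less. Gzmb, at 14.2, 20.3 and 30.3, and Ccr7, at 43.2, 48.5 and 52.0, were highest in replicate 3. In the 6 controls Ncr1 was at 0, Cd8a between 15.4 and 30.9 and Ccl5 between 0.680 and 7.87. Of 16 NK and type 1 innate lymphoid cell genes 14 were on the list, 13 on the higher side and 1, Nkg7, on the lower; of the 14 mature T-cell genes 7 were on the higher side and 2 on the lower. The part of such cells in the receptor values was not tested.

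HET could be tested against WT in these libraries, since the list was chosen on HOM against both controls together. None of the 10 members was called by edgeR (2.22% of the listed genes were) or by DESeq2, and none had an unadjusted p under 0.05. The members had 15 or fewer counts in any control library, so small differences were not detectable at this depth.

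Most of the listed members lay close together in the complex. In the mm9 coordinates of the file, 34 members and 25 other genes start within the 2610 kb between Klrb1a and Klra2. The 10 members from Klre1 (chr6:129528304-129535845) to Klra5 (chr6:129849009-129863242) start within 321 kb, and 8 of them were on the list, all on the higher side; Klri1 and Klra17 were not listed. Of the 24 members elsewhere in the complex 2 were listed, Klrb1a and Klra7. The stretch was drawn with the list known and ends in a listed member on both sides. Its share of listed members is therefore a description and not a test of clustering. Of the 25 other genes 4 were listed lower in HOM (Clec2d, Clec12a, 1700101I11Rik and Gabarapl1, the nearest gene before Klre1) and 1 higher (BC035044). Klrd1, Klrk1, Klrc1, Klrc2 and Klrc3 lie in this stretch, while Klrb1c and Klrb1f, which held most of the WT DN3 counts, lie before it. Several Klra entries have overlapping spans in this build, such as Klra22 and Klra15, or Klra19 and Klra6. Of the 20 Klra members 13 were found in GENCODE M21. Whether all 24 members outside the stretch are separate genes in these mice was not tested.

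**Figure D5:**
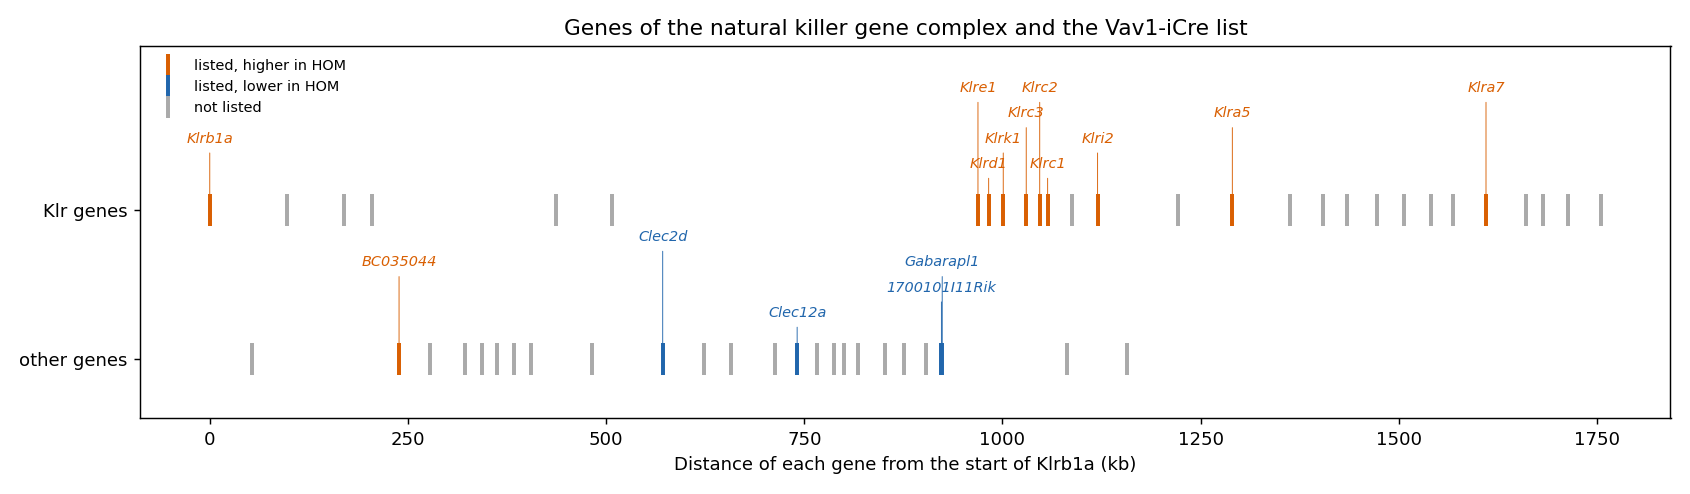
Genes of the natural killer gene complex by the distance of each gene from the start of Klrb1a in kb (horizontal axis), in a row of Klr genes above a row of other genes, coloured by their side of the Vav1-iCre list; Klra2, 2610 kb away, is not drawn. The 8 listed members between Klre1 and Klra5 lie together, next to Gabarapl1 on the lower side.

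Promoter windows of 300 bases, 250 before and 50 after each start, were available from RefSeq (GRCm38.p6) for 23 of the 36 members, 8 of them on the Vav1-iCre list. They were searched on both strands for an E-box (CANNTG, bound by E proteins, which Id2 antagonizes), for a Runx site (TGTGGT) and for a GATA site (AGATAA). An E-box was in 21 of 23 member windows and 75.0% of the windows of all 27025 genes. A Runx site was in 8 of 23 member windows, 6 of the 8 listed ones, and 18.9% of all windows, and a GATA site in 3 of 23, 2 of the 8 listed ones, and 12.7% of all windows. The Klrc windows are related in sequence and do not count as independent, and a match is no sign of binding. The windows of 3 listed neighbours are shown with E-box and Runx matches in capitals, each read 5′ to 3′ on its gene's strand. They lie at chr6:129623815-129624114 (minus strand) for Klrk1, at chr6:129678924-129679223 (minus strand) for Klrc1 and at chr6:129577963-129578262 (plus strand) for Klre1. Each holds 1 E-box and 1 Runx match. Another window of Klre1, at chr6:129578036-129578335, holds 1 E-box and no Runx match. A gene with several windows was counted as having a site if any of them held it.

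Klrk1: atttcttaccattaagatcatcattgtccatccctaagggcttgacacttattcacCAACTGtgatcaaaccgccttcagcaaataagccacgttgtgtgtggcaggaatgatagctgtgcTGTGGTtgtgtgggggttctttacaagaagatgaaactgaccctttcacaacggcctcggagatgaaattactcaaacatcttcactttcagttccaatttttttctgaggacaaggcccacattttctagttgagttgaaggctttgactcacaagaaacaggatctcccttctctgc

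Klrc1: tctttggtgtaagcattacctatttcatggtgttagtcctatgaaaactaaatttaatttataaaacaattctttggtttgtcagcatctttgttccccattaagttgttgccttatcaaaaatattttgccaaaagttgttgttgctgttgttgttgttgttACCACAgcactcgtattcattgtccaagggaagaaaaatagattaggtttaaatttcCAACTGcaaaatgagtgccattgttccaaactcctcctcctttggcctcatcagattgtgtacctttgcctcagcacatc

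Klre1: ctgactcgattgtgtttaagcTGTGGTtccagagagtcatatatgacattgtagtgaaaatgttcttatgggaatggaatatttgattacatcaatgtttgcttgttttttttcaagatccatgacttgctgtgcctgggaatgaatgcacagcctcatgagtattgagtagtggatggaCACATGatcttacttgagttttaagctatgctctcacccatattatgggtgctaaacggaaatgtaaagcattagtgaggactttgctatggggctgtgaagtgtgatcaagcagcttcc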

How the data were processed

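RNA-seq libraries were made from sorted double-negative thymocytes and read as 50-base single reads, per the labels' protocols. The submitters' processing notes name STAR 2.4.0, HOMER, RSEM 1.2.25, Trimmomatic 033, edgeR 3.6.8 and NCBIM37/mm9. Although their columns are named RPKM, both deposited tables hold whole-number counts per gene, which the authors made with HOMER per the file headers, not normalized. The Vav1-iCre table holds 2076 genes, and per the file headers the authors compared HOM with the pooled WT and HET libraries by edgeR; genes with a mean over 50 counts leave a gap between log2 differences of -0.99 and 0.99, so it was read as chosen on that change.

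In 10 of the 25 Lck-Cre columns 26 values were missing, at the March and Sept symbols, which moved later values up. They were shifted back, after which their correlation with other libraries was 0.974 or more, against 0.395 or less as deposited. The 114 genes whose order could not be settled, Klrb1 and Klrb1-ps1 among them, were left out of tests (24365 kept), and the other Klr genes lie before the shift.

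All 25 Lck-Cre libraries were fitted together with edgeR 4.0.16 (quasi-likelihood test, TMM scaling, Benjamini-Hochberg adjustment), in R 4.3.3, for genes with a mean of at least 1 RPKM in a group (12218 genes) and for every gene with a count (19145 genes), where members were tested. The scripts were tested on simulated data. DESeq2 1.42.0 and limma 3.58.1 were alternatives, with other normalizations, a replicate block, fits of the compared groups alone and libraries left out. Same-numbered WT DN3 and WT DN2 libraries deviated together (r between 0.171 and 0.609 over 4 pairs). In each other comparison the lowest r was below 0.1, though single values reached 0.746. Differently numbered libraries were not compared and the labels do not say what the numbers mark, so pairing was not settled.

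For Vav1-iCre, CPM of the listed genes were TMM-scaled within the controls and within HOM, and the gap between genes on the higher and lower sides was centred on 0 to join them, which sets the HOM folds; listed totals ran between 1329826 and 2836293 counts. Intervals on counts cover counting error only. Figures were drawn with matplotlib 3.10.9.

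By the naming rule, members above 1 RPKM in a group were to be given in full, and up to 4 genes with the smallest adjusted p from each other list. Since no member met it, the 8 above 1 RPKM in a single library were given, a choice made after their values were seen. The members and lists were chosen with earlier results of these data known.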

Additional observations from a re-analysis of the deposited data

Results flagged for a closer look

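In 55 groups of 4 to 10 libraries with counts, 17 values stood apart from the rest of their group by Dixon's criterion. Its rate of about 1 group in 20 by chance is for normally distributed values. It does not hold for sparse counts with many zeros, where 1 count can be enough, so the 17 cannot be set against it. WT DN2 replicate 2, the library with mature T-cell RNA, gave 7 of them. It had 2.66 RPKM of Klrd1, 2.37 of Klrk1, 1.99 of Klrc1, 1.59 of Klrb1c, 1.09 of Klrc2 and 0.375 of Klrg1, and 22.6 CPM of all the receptors. In HOM, replicate 1 stood apart for Klrc1 (0.976 RPKM) and replicate 5 for Klrb1f (1.49 RPKM). In HET DN3, replicate 1, the other library with mature T-cell RNA, stood apart for Klrc2 (0.478 RPKM) and replicate 4 for Klrd1 (0.587 RPKM). In HET DN2, replicate 4 stood apart for Klrd1 (0.450 RPKM), Klrc1 (0.336 RPKM) and Klrg1 (0.0816 RPKM, 2 counts). A single count set WT DN3 replicate 1 apart for Klrd1 (0.0674 RPKM), and Vav1-iCre HET replicate 1 apart for Klra7 and Klrc1 (0.718 scaled CPM each).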

How the results depend on the processing

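No Klr gene reached a group mean of 1 RPKM under any of the alternatives tried, among them TMM-scaled totals, group medians and left-out libraries. In the fits of every gene with a count, whose alternatives were all chosen after seeing the data and where no member was called, HOM against WT DN3 had 1 called by DESeq2, 4 with the compared groups alone, 2 with the compared groups and the replicate block, 1 without the 2 libraries with mature T-cell RNA, 2 without the 6 epithelial ones and 4 without all 8; leaving out single libraries gave 0 to 1. HOM against HET DN3 gave 0 to 1 when single libraries were left out, HET DN2 against WT DN2 had 1 by DESeq2, and HOM against WT DN2 had 1 each by DESeq2, with the compared groups alone and without all 8. WT DN3 against WT DN2 had 1 with the compared groups alone (Klrd1), 1 with those groups and the replicate block (Klrb1c, also without WT DN2 replicate 2) and 1 without the epithelial libraries (Klrd1). The Klrc2 difference between HOM and WT DN2 was -0.14 (log2), but 5.54 without all 8 libraries (edgeR adjusted p = 0.0343). WT DN2 replicate 2 held all its WT DN2 counts, but leaving out that library alone, or the 2 with mature T-cell RNA, did not make the call. Of the single-gene values under alternatives, 1271 stayed on their side of the threshold, 23 newly passed it and 1 passed it with the opposite sign. The causes of these changes were not tested. Vav1-iCre HET against WT had 0 called throughout, with the replicate block too. Whether the replicate numbers pair the libraries was not settled. Same-numbered HET DN3 and HET DN2 libraries had r between -0.697 and 0.736, and HOM and HET DN3 libraries between -0.006 and 0.746. With the block alone added to the fit of all groups, 0 members were called in every Lck-Cre comparison. That includes the comparison between stages of the change from WT to HET, where a block fit of its 4 groups also gave 0. Most members have few counts, which limits every test here.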
